A study of Mus musculus with 3 samples.

Results

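HIF1α binding was described at 49 genes that mark the non-muscle lineages of the embryonic heart. The genes form 4 groups: 20 endothelial and endocardial genes, 10 epicardial genes, 15 genes of cushion mesenchyme and 4 genes of smooth muscle. They were listed by name as lineage markers, with earlier results of these data known, and all 49 matched a gene among the 21775 protein-coding genes used here. The hearts came from wild-type mouse embryos of the strain Black-Swiss at E12.5, where E stands for the embryonic day. Chromatin was cross-linked with formaldehyde and precipitated with an antibody against HIF1α in 2 replicate pulldowns, and 1 input library had no antibody. Whole hearts were used, so the cells in which a peak arose cannot be told apart. The labels do not say whether embryos were pooled.

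The measurement was the authors' merged list of 17289 peaks, which combines calls of both pulldowns against the input. Each peak has the authors' own whole-number score, whose lowest and median value over the list is 2, and the last number of its name, 1 or 2, was read as the number of calls merged into it. Of all peaks, 1989 (11.5%) had 2 calls. The pulldown behind a peak of 1 call is not marked and the read depth is unknown, so no value below has an error between replicates. Intervals are exact 95% Clopper-Pearson intervals over genes or peaks, which are not replicates. They cover counting error only. Expression of the lineage genes was not measured here, so the tissue label could not be checked against its markers.

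HIF1α is stabilised when oxygen is low, pairs with ARNT and binds DNA at the short core ACGTG or GCGTG. Endothelial cells line the vessels, and their endocardial relatives line the heart chambers. The epicardium covers the outer surface of the heart. Cushion mesenchyme arises when endocardial cells leave their layer, and it forms the valves. Flt1, Kdr, Eng, Cdh5, Dll4, Wt1, Twist1, Snai1 and Sox9 have been described as responsive to hypoxia-inducible factors in other settings, which is given here as background.

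Of the 49 lineage genes, 14 (28.6%, interval 16.6 to 43.3%) had a peak centre inside the gene or within 5 kb of either end. Among all protein-coding genes the share was 32.7%, so the lineage genes lay near the background. The count was 6 of 20 endothelial genes (30.0%), 4 of 10 epicardial genes (40.0%), 3 of 15 cushion genes (20.0%) and 1 of 4 smooth muscle genes (25.0%). The intervals of all 4 groups hold the background share. The 14 genes carried 23 peaks, with scores from 2 to 5 and a median of 3.00.

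Peaks of 2 calls were few. They occurred at Tek, Nfatc1 and Krt19, that is, at 3 of 49 lineage genes (6.12%, interval 1.28 to 16.9%), where the background share was 9.04%. Of the 23 peaks, 3 (13.0%, interval 2.78 to 33.6%) had 2 calls, against 11.5% of the whole list. Scores of 4 or more were held by 4 of the 23 peaks (17.4%), against 15.4% of the whole list. The whole list also holds peaks far from genes, so it is not a matched background. In the windows of other protein-coding genes, 2080 of 10219 peaks had 2 calls and 2963 scored 4 or more. A peak in the windows of several genes was counted for each. Both shares there were higher than at lineage genes, and the difference was not tested. Counted by gene, 4 of 49 lineage genes (8.16%) had a peak scoring 4 or more, where the background share was 12.1%.

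Few lineage genes had a peak at an end. Counting only centres within 5 kb of either gene end, which leaves out the deep gene body, 4 of 49 lineage genes (8.16%, interval 2.27 to 19.6%) had a peak, where the background share was 24.0%. Within 1 kb of an end the count was 2 of 49 (4.08%, interval 0.498 to 14.0%), where the background share was 16.3%. Those 2 genes were Tie1 and Krt19. Most of the peaks counted for the lineage genes lay far inside them. Of 20 peaks inside lineage genes, 17 (85.0%, interval 62.1 to 96.8%) were over 10 kb from the nearest end of a protein-coding gene. Of the 6602 peaks of the list inside any protein-coding gene, 53.7% were that far from the nearest end of such a gene. Ends of noncoding genes were not counted, and peaks in Flt1, Prrx1 and Vcan lay 1651, 1683 and 3570 bp from one. The 20 peaks came from 11 genes, with 4 peaks each in Tek and Sema3d, and the interval treats them as independent. A peak can lie that deep only in a long gene, and these shares were not matched for gene length.

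**Figure D1:**
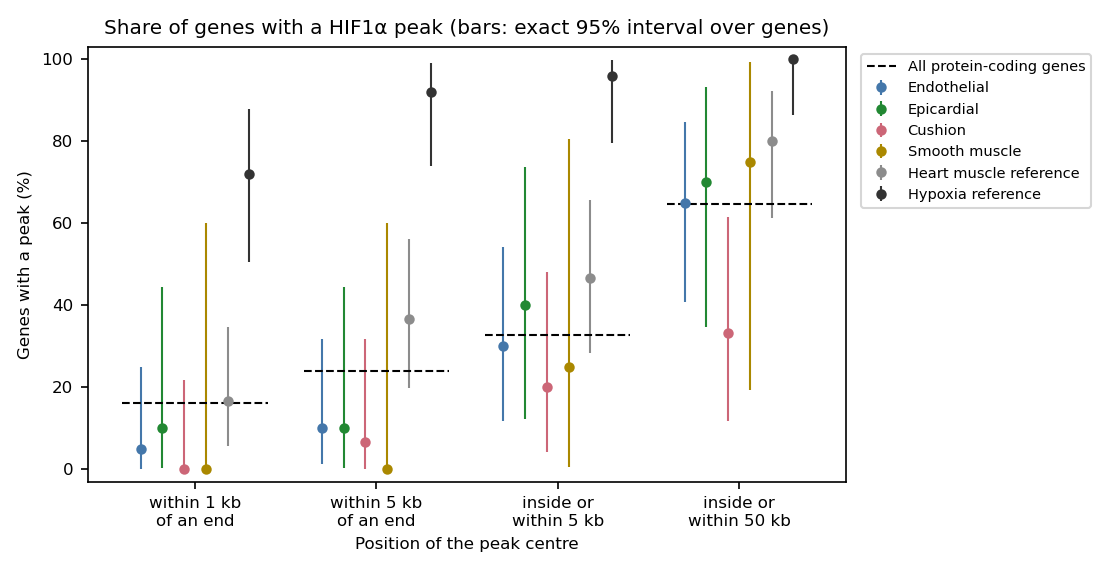
Percent of genes with a HIF1α peak (vertical axis) for 4 definitions of position (horizontal axis). Points are the 4 lineage groups and the heart muscle and hypoxia reference lists, bars are exact 95% intervals over genes, and dashed lines give all protein-coding genes (16.3%, 24.0%, 32.7% and 64.8% from left to right). The points of the lineage groups lie below the dashed line at gene ends, whereas those of the hypoxia genes lie between 72.0% and 100%.

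The promoters that bear on these results are shown from RefSeq (GRCm38.p6, the same assembly as mm10), each from 250 bases before to 50 bases after the annotated start, in the direction of the gene. Tie1 is shown because its peak reached into this window. Flt1, Snai1 and Twist1 are described as responsive to hypoxia-inducible factors, had no peak there and hold a match to the core. Kdr, Dll4 and Eng are described in the same way, also have a promoter in RefSeq without a peak, and are not shown. Of these, Kdr and Dll4 hold GCGTG, and Eng holds neither ACGTG nor GCGTG. Notch3, a further vascular gene, had a peak at its start, and P4ha1, a hypoxia gene, had one with a high score. In Tie1 capitals mark the 32 bases under the peak. In the others capitals mark matches to ACGTG or GCGTG on either strand, so that the reverse strand reads CACGT or CACGC.
Tie1, chr4:118489800-118490099, minus strand: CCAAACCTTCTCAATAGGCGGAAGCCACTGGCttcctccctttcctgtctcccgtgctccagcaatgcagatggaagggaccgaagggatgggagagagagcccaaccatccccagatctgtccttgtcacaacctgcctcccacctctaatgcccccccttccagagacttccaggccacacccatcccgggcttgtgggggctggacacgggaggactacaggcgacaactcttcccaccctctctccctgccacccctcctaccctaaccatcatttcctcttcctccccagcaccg
Flt1, chr5:147725962-147726261, minus strand: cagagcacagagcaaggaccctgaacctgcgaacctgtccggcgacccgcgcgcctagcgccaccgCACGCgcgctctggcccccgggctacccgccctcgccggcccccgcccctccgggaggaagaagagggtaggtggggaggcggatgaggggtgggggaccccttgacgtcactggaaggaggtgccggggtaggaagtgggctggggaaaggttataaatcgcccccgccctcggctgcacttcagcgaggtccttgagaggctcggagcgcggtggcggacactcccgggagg
Snai1, chr2:167537945-167538244, plus strand: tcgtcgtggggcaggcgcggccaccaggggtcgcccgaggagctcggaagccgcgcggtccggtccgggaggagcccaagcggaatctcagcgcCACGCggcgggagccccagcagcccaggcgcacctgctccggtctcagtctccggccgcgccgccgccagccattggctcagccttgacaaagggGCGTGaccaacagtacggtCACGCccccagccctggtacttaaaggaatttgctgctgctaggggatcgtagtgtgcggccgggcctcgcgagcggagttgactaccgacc
Twist1, chr12:33957421-33957720, plus strand: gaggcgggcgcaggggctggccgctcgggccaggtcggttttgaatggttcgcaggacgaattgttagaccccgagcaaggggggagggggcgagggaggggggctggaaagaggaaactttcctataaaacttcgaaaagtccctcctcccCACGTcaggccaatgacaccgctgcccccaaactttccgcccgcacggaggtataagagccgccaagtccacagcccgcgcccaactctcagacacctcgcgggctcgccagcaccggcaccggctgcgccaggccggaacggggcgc
Notch3, chr17:32166841-32167140, minus strand: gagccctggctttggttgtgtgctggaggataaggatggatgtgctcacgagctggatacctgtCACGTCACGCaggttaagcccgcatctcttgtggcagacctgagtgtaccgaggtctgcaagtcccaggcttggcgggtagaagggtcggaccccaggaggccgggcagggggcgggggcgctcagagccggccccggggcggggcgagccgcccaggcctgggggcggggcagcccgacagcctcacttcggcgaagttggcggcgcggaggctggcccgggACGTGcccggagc
P4ha1, chr10:59323046-59323345, plus strand: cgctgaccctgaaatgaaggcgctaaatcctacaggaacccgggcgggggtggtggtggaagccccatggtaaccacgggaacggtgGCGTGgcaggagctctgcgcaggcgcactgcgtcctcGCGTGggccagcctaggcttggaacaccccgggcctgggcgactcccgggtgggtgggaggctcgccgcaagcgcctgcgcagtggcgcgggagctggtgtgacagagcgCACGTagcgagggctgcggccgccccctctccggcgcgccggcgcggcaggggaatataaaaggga

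Among endothelial genes, 8 of the 10 peaks lay at Tek, Tie1, Flt1 and Notch1. Tek and Flt1 are long genes (136 and 165 kb). All 4 encode receptors, but the receptor genes Kdr and Npr3 had no peak in the window. Tek, which encodes the angiopoietin receptor TIE2, had 4 peaks, all inside the gene. The first had a score of 3 from 2 calls and lay 13.3 kb after the annotated start (chromosome 4, 94752502 to 94752618). A pair of peaks of 1 call with a score of 2 each lay 47.8 and 48.2 kb after it. The fourth, of 1 call with a score of 3, lay 120 kb after it and 15.6 kb from the far end of the gene. The closest of the 4 was thus over 10 kb from the start.

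Tie1, which encodes a related orphan receptor, had 1 peak with a score of 2 from 1 call. It lay 269 bp before the annotated start (chromosome 4, 118490068 to 118490168). This was the single peak within 1 kb of an annotated start among the 29 lineage genes with a promoter entry. No ACGTG or GCGTG was found in the Tie1 window above, which holds only part of the peak.

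Flt1, which encodes VEGF receptor 1, had 2 peaks of 1 call with a score of 3 each. They lay 28.1 and 68.0 kb after the start, inside the gene (chromosome 5, 147697865 to 147697965 and 147657989 to 147658089). In the Flt1 promoter shown above, a GCGTG on the reverse strand lies 184 bp before the start, with no peak over it. Kdr, which encodes VEGF receptor 2, had no peak within 50 kb, and its nearest peak was 139 kb away.

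Of the Notch pathway, the lineage genes include the receptor gene Notch1, whose peak lay on its 3′ side. The further receptor gene Notch3, given below, had peaks of 1 call near its start. Notch4, another further receptor gene, had a peak of score 4 from 1 call inside it, 973 bp from its 3′ end. Another peak of score 4 from 1 call lay 3.78 kb outside Notch4, 66 bp from an end of Pbx2. Notch1 had 1 peak inside the gene, with a score of 3 from 1 call, 1165 bp from its 3′ end and 44.8 kb after its start (chromosome 2, 26459017 to 26459117). That peak lies 323 bp from an end of the long noncoding RNA gene 0610009E02Rik, which is closer than either end of Notch1. Dll4, which encodes a Notch ligand of arteries, had no peak in its window. The nearest peak to Dll4 was 37.1 kb away and 85 bp from an end of Vps18.

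Nfatc1, a transcription factor gene of the endocardium, carried the highest score of the lineage genes. Its single peak scored 5 from 2 calls and lay 49.6 kb from the nearest end of the gene (chromosome 18, 80655708 to 80655808). Emcn, which encodes the sialomucin endomucin, had 1 peak with a score of 2 from 1 call, 6.25 kb from its 3′ end (chromosome 3, 137424773 to 137424873).

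The other 14 endothelial genes had no peak in the window. The closest misses were Pecam1 (5.70 kb, score 3, 1 call), which encodes the junction protein CD31, and Npr3 (6.29 kb, score 3, 2 calls), which encodes a natriuretic peptide receptor of the endocardium. Next came Sox18 (8.55 kb), Eng (11.6 kb), Plvap (14.6 kb), Cldn5 (33.7 kb) and Dll4. The peak nearest to Sox18 lay 106 bp from an end of Tcea2, and the one nearest to Cldn5 lay 33 bp from an end of Cdc45. Cdh5 (63.4 kb), Tal1 (66.2 kb), Erg (115 kb), Esam (119 kb), Kdr, Fli1 (149 kb) and Sox17 (158 kb) had no peak within 50 kb. These include the transcription factor genes Tal1, Erg, Fli1 and Sox17 that act early in the endothelial lineage.

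Among epicardial genes, Krt19 had the peak closest to a gene end of all 49 genes. Krt19 encodes a keratin of epithelial layers. The peak scored 4 from 2 calls and lay 221 bp outside the gene, past its higher-coordinate end (chromosome 11, 100146093 to 100146201). The strand of Krt19 was not available here, so whether that end is its start was not settled. Wt1, which encodes a zinc finger factor required in the epicardium, had 2 peaks of 1 call inside the gene. Their scores were 2 (chromosome 2, 105155251 to 105155351) and 3 (105162881 to 105162981), and they lay 18.3 and 10.7 kb from the nearest end.

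Sema3d, which encodes a secreted guidance factor, had 4 peaks of 1 call with scores of 2, 2, 3 and 2. They lay 108, 133, 144 and 168 kb after its start, within a gene of 206 kb, and none was less than 38.0 kb from an end. Bnc1, which encodes the zinc finger factor basonuclin, had 1 peak with a score of 2 from 1 call, 5.17 kb from its 3′ end. The other 6 epicardial genes had none in the window. Msln (20.7 kb), Aldh1a2 (26.7 kb) and Upk3b (39.0 kb) had a peak within 50 kb, and Upk1b (102 kb), Tcf21 (261 kb) and Podxl (382 kb) did not. Aldh1a2 encodes the enzyme that makes retinoic acid in the epicardium, and Tcf21 a factor of fibroblast fate.

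Cushion mesenchyme genes had 4 peaks at 3 genes, all of 1 call. Vcan, which encodes the matrix proteoglycan versican, had 1 peak with a score of 4, 12.4 kb after its start (chromosome 13, 89730077 to 89730177). Prrx1, a homeobox gene of mesenchyme, had a peak with a score of 4 at 31.9 kb after its start and one with a score of 2 at 54.6 kb. Snai2, which encodes a repressor of epithelial genes, had a peak with a score of 3 that lay 4.25 kb outside the gene (chromosome 16, 14701548 to 14701648).

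The other 12 cushion genes had no peak in the window, and 10 of the 15 had none within 50 kb. With 5 of 15 genes reached at 50 kb (33.3%, interval 11.8 to 61.6%), the cushion group lay below the background share of 64.8% at that distance. A list of 20 further cushion and smooth muscle genes gave 12 there (60.0%, interval 36.1 to 80.9%). Col1a1, a fibrillar collagen gene, had a peak scoring 5 from 2 calls at 7.37 kb (chromosome 11, 94928791 to 94928926), 297 bp from an end of the noncoding gene Gm46293. Msx2 had its nearest peak at 36.5 kb. The distances were 65.3 kb for Sox9, 89.3 kb for Snai1, 112 kb for Pdgfra and for Has2, 115 kb for Col3a1 and 164 kb for Twist1. They were 167 kb for Col1a2, 197 kb for Pdgfrb, 215 kb for Msx1 and 329 kb for Postn. Snai1 and Twist1 encode transcription factors of the change from epithelium to mesenchyme. Their promoters hold 3 GCGTG and 1 ACGTG respectively, with no peak over them.

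Smooth muscle genes had 1 peak in the window, of 1 call with a score of 2, deep inside the myosin heavy chain gene Myh11 and 48.2 kb from its nearest end. Tagln (23.3 kb) and Cnn1 (24.0 kb) had a peak within 50 kb, and Acta2 (79.0 kb) did not. The 2 highest scores within 50 kb of any lineage gene were 8 from 1 call at 24.0 kb and 10 from 2 calls at 28.1 kb from Cnn1. Both peaks lay inside other protein-coding genes. The former was in Acp5, 2540 bp from its nearest end, and the latter in Zfp653, 231 bp from its nearest end.

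**Figure D2:**
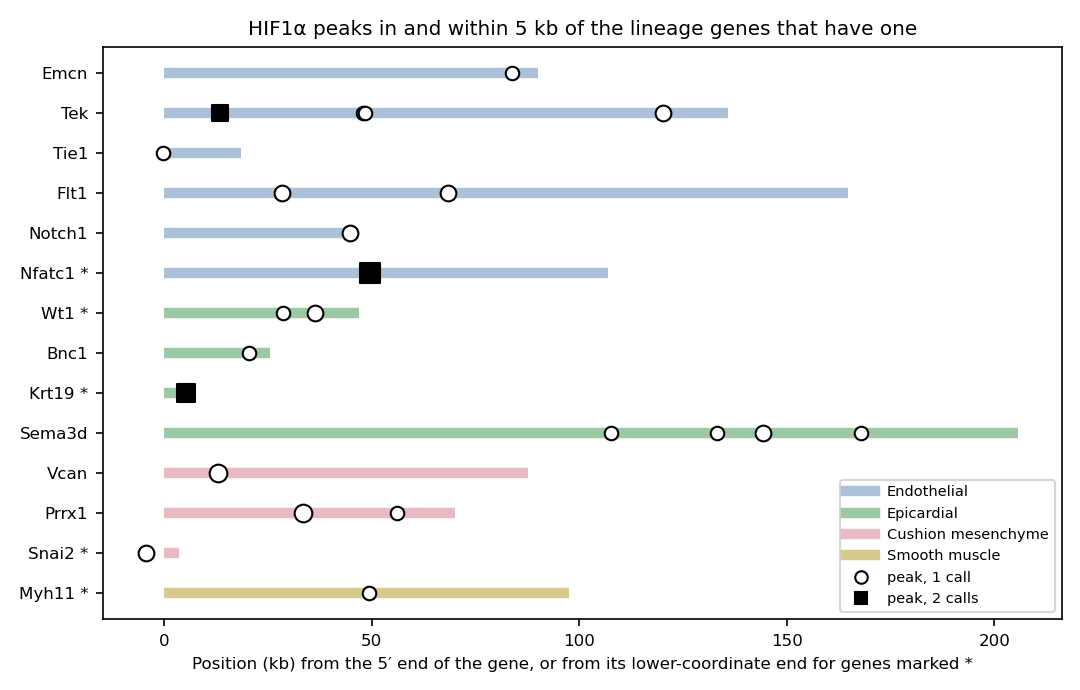
Gene bodies (coloured bars, to scale in kb) of the 14 lineage genes with a HIF1α peak inside or within 5 kb, with each peak centre as an open circle (1 call) or black square (2 calls) whose area grows with score. Peaks of Tek, Flt1, Sema3d and Prrx1 lie over 10 kb from the 5′ end, and Tie1 has its peak at the 5′ end.

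Between 5 and 50 kb from the lineage genes lay 33 further peaks, 5 of them of 2 calls. Of these 33, 16 (48.5%, interval 30.8 to 66.5%) were within 1 kb of an end of another protein-coding gene, against 19.1% of the whole list. The whole list is not a matched background, since it holds peaks at any distance from genes. The share among peaks 5 to 50 kb from other protein-coding genes was not counted. The neighbours included Tcea2, Cdk9, Vps18, Cdc45, Rasa4, Pcsk7 and Inpp5e. At 50 kb, 28 of 49 lineage genes (57.1%, interval 42.2 to 71.2%) were reached, where the background share was 64.8%. With peaks of 2 calls alone 7 of 49 (14.3%, interval 5.94 to 27.2%) were reached at that distance, where the background share was 21.4%. The median distance to the nearest peak was 33.7 kb for lineage genes and 24.3 kb for all protein-coding genes, and 21 lineage genes had no peak within 50 kb.

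**Figure D3:**
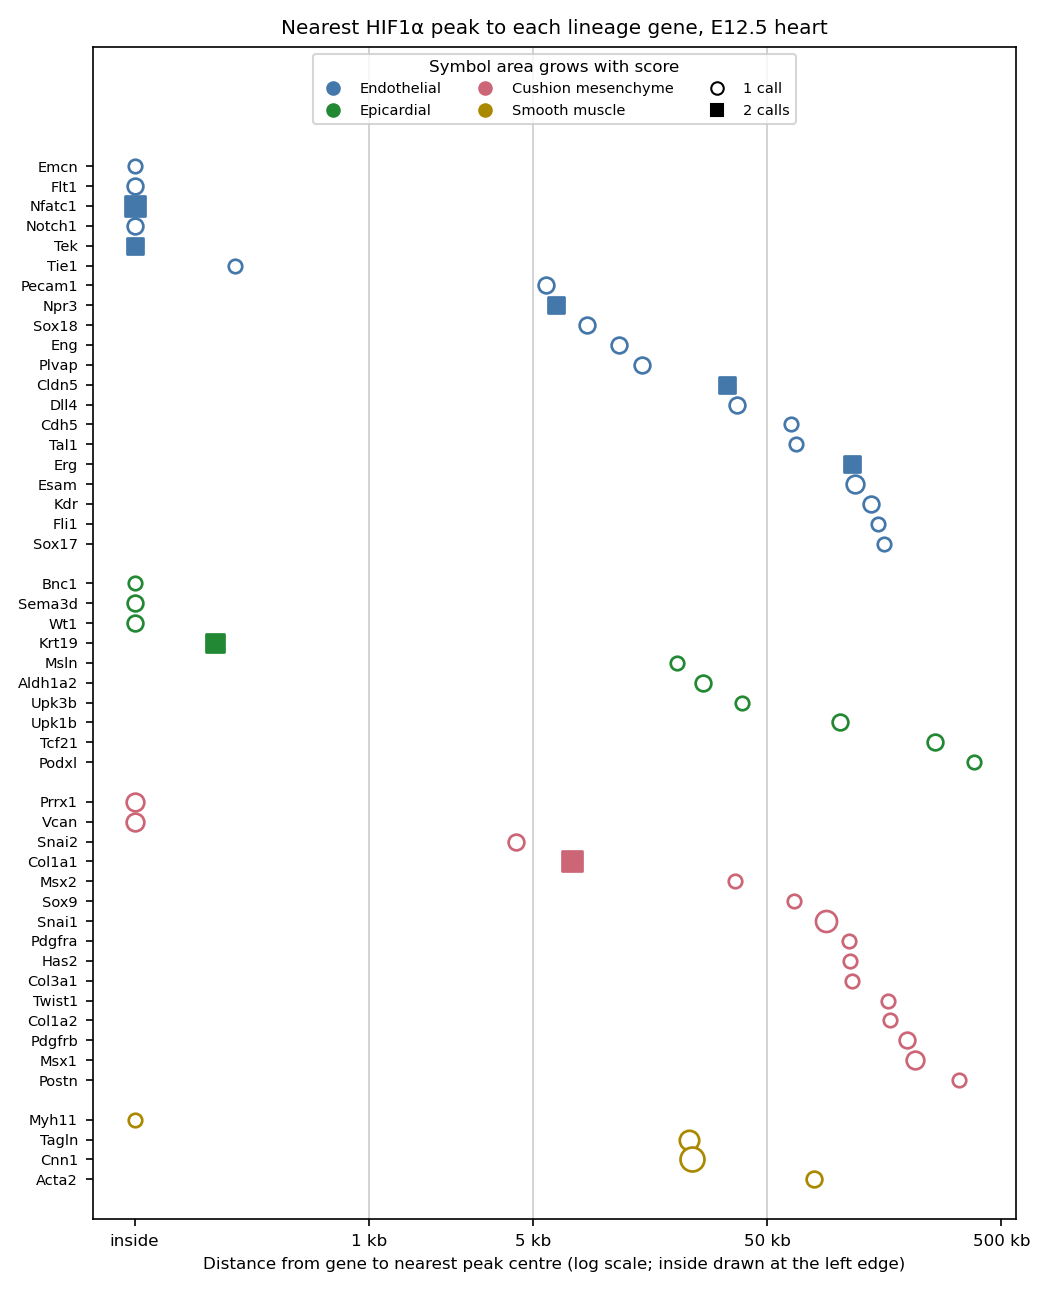
Distance from each of the 49 lineage genes to its nearest HIF1α peak centre (horizontal axis, log scale, with inside drawn at the left). Genes are grouped by lineage, filled squares are peaks of 2 calls and open circles peaks of 1 call. Of the genes, 11 have a peak inside, 3 more within 5 kb, 14 first between 5 and 50 kb, and 21 beyond 50 kb.

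Gene length moved with the presence of a peak. Lineage genes with a peak in the window had a median length of 78.9 kb (3.54 to 206 kb, n = 14), and those without one 15.3 kb (1.42 to 227 kb, n = 35). All protein-coding genes were put into 4 equal classes by length, and the longest class, from 44.5 kb upwards, held 17 lineage genes. Of these, 10 (58.8%, interval 32.9 to 81.6%) had a peak, and of all genes of that class 52.8% did. In the 3 shorter classes 4 of 32 lineage genes (interval 3.51 to 29.0%) had a peak, against 26.0% of all genes there. Per length of window, lineage genes carried 8.47 peaks per Mb and all protein-coding genes 8.09. The groups had 7.02 (endothelial), 14.5 (epicardial), 6.99 (cushion) and 5.91 (smooth muscle) peaks per Mb, from 10, 8, 4 and 1 peaks. For peaks of 2 calls the densities were 1.10 and 1.65 per Mb. Lineage genes also had a median of 1 other protein-coding gene within 50 kb, and all protein-coding genes a median of 3. The part of length and of neighbours in these counts was not tested.

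**Figure D4:**
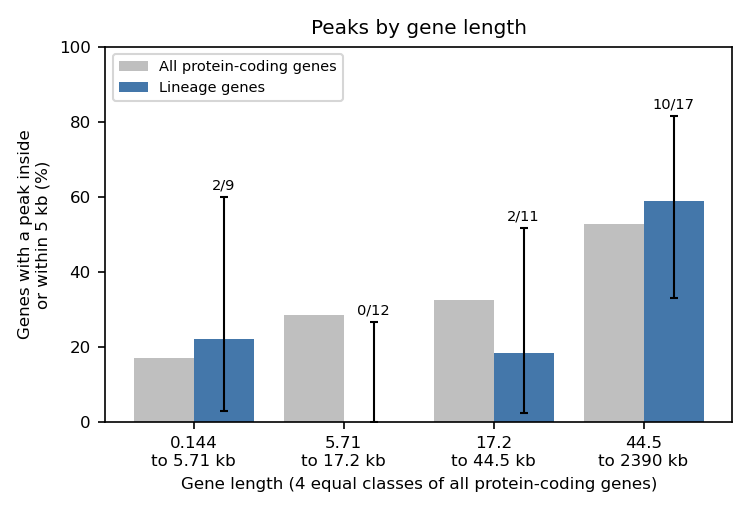
Percent of genes with a peak inside or within 5 kb (vertical axis, from 0) by class of gene length, with 4 equal classes of all genes (horizontal axis, kb). Grey bars are all protein-coding genes, blue bars are lineage genes with exact 95% intervals, and the numbers give lineage genes with a peak out of those in the class, from 2 of 9 in the shortest to 10 of 17 in the longest.

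The 9 lineage genes described elsewhere as responsive to hypoxia-inducible factors were set apart as a list. Of these, 2 (22.2%, interval 2.81 to 60.0%) had a peak in the window, namely Flt1 and Wt1, where the background share was 32.7%. Their 4 peaks were all of 1 call with scores of 2 or 3, and all lay inside the genes over 10 kb from an end. None of the 9 had a peak within 5 kb of an end, and the interval of that share reaches 33.6%. Eng and Dll4 had a peak within 50 kb, and Kdr, Cdh5, Twist1, Snai1 and Sox9 did not.

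The letters of the binding core were counted in the promoters. ACGTG or GCGTG on either strand was found in 14 of 33 promoters of the 29 matched lineage genes (42.4%), and in 49.3% of 21262 promoters of protein-coding genes of the same length. ACGTG alone was in 4 of the 33 (12.1%), against 20.9% of all. Those 4 belong to Aldh1a2, Cnn1, Col1a2 and Twist1. The E-box CACGTG, which contains ACGTG, was in none of the 33 and in 7.84% of all. In the hypoxia reference list, ACGTG was in 19 of 32 promoters (59.4%) and either core in 26 (81.2%). The lineage genes described elsewhere as responsive had 6 promoters. Either core was in 5 of these (83.3%), and ACGTG in 1 (16.7%). The Notch3 window holds 2 ACGTG and 1 GCGTG, and the P4ha1 window 1 ACGTG and 2 GCGTG. A match describes letters and is not a site.

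Further genes of the same lineages were counted in the same way. Of 64 such genes, 14 (21.9%, with an interval that reaches up to 34.0%) had a peak inside or within 5 kb, and 3 (4.69%, interval 0.977 to 13.1%) had one of 2 calls, where the background shares were 32.7% and 9.04%. The latter were Nos3, Acvrl1 and Notch3. Nos3, which encodes endothelial nitric oxide synthase, had a peak of score 5, 921 bp inside one end, but an end of Atg9b was closer at 628 bp. Acvrl1, which encodes the ALK1 receptor of the BMP pathway, had a peak of score 6 from 2 calls at 327 bp outside the gene (chromosome 15, 101145606 to 101145721). The strand of Acvrl1 was not available here either. Notch3, which encodes the Notch receptor of vascular smooth muscle, had 3 peaks inside the gene, with scores of 4 and 3 from 1 call at 54 and 770 bp after its start and a score of 4 from 2 calls at 23.5 kb.

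By lineage, the further endothelial genes gave 4 of 30 (13.3%, interval 3.76 to 30.7%), the further epicardial genes 6 of 14 (42.9%) and the further cushion and smooth muscle genes 4 of 20 (20.0%). The 6 epicardial genes were Gpm6a, Bnc2, Sulf1, Efemp1, Muc16 and Itga4, and their 7 peaks were all of 1 call with scores of 2 or 3. Their lineage list had a summed gene length of 1.34 Mb for 14 genes, and its density inside genes was 5.23 peaks per Mb, against 6.50 for all protein-coding genes. For the 10 epicardial genes among the 49 it was 15.5, from 7 peaks, 4 of them in Sema3d. Within 50 kb, 8 of the 64 further genes had a peak of 2 calls, where the background share was 21.4%. Beside Nos3, Acvrl1 and Notch3 these were Lyl1, Egfl7, Des, Rasip1 and Apln. Lyl1, a relative of Tal1, had one of score 9 at 7.96 kb, inside the gene Nfix, and one of score 5 at 13.5 kb, 19 bp from an end of Nacc1. Egfl7, which encodes a secreted endothelial factor, had one of score 6 at 9.03 kb before its start. The distances were 31.5 kb for Des (score 3), 38.1 kb for Rasip1 (score 4) and 39.8 kb for Apln (score 2).

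Hypoxia genes and heart muscle genes, listed with earlier results of these data known, were counted in the same way. Of 25 hypoxia genes, 24 (96.0%, interval 79.6 to 99.9%) had a peak inside or within 5 kb, and 23 had one of 2 calls. Their 33 peaks had a median score of 16.0, against 3.00 for the 23 peaks of the lineage genes. P4ha1, a collagen prolyl hydroxylase subunit gene, had a peak of score 46 from 2 calls, 17 bp before its start, and its reverse-strand ACGTG lies 16 bp before the start. Of 30 genes of heart muscle, 14 (46.7%, interval 28.3 to 65.7%) had a peak, and 5 (16.7%, interval 5.64 to 34.7%) had one of 2 calls. Both intervals hold the background shares of 32.7% and 9.04%. With scores of at least 4 the count was 9 of 30 (30.0%, interval 14.7 to 49.4%), above the background share of 12.1%. With peaks of 2 calls within 50 kb it was 13 of 30 (43.3%, interval 25.5 to 62.6%), above the background share of 21.4%. Some of these genes share a peak, such as Myh6 and Myh7. The intervals of the other settings hold their background shares. Within 5 kb of an end the count was 11 of 30 (36.7%, interval 19.9 to 56.1%) for heart muscle genes and 4 of 49 for lineage genes, where the background share was 24.0%. The difference between those shares was not tested.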

How the data were processed

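HIF1α ChIP-seq was available as 1 peak list from 2 pulldowns and 1 input. Bowtie2, HOMER and the mm10 build are named in the submitters' processing notes, without versions. The sources used here do not give the calling threshold or the merging rule. The authors' score per peak is a whole number whose scale the file header does not explain, and the deposited file has no values per sample, so depth is unknown and no test across replicates was possible.

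Coordinates are 1-based. Gene positions came from a RefSeq table of GRCm38.p6, which gives no exons or strand. Protein-coding nuclear genes were used, leaving out those starting below 3000000 bp on chromosomes other than Y. Strand and starts came from the RefSeq promoter table, which matched 29 of the 49 genes. Peaks were assigned by their centre. Python 3.11.15, pandas 2.3.3 and scipy 1.17.1 were used, and counting was tested on simulated peaks.

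Every gene with a peak inside or within 5 kb was named, as were all others with their nearest distance. From each further list up to 6 genes were named, those with a peak of 2 calls within 50 kb or else the nearest. Members and lists were chosen with earlier results of these data known, so no set test was run. Alternatives changed the window, the score, the calls, the overlap and the assignment of peaks.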

Additional observations from a re-analysis of the deposited data

How the results depend on the processing

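The main counts of genes with a peak inside or within 5 kb were 14 of 49 lineage genes, 6 of 20 endothelial, 4 of 10 epicardial, 3 of 15 cushion and 1 of 4 smooth muscle genes. Beside them stood 14 of 64 further lineage genes, 24 of 25 hypoxia genes and 14 of 30 heart muscle genes, for which the alternatives were chosen after seeing the data. At 50 kb the counts were 28, 13, 7, 5 and 3 for the lineage genes and their groups, 38 for further genes and 24 for heart muscle (64.8% of all coding genes). With gene ends alone (5 kb) they were 4, 2, 1, 1 and 0, and 6 for further genes (24.0% of all). With scores of at least 4 they were 4 (8.16%, against 12.1% of all), 1, 1, 2 and 0, with 4 for further genes and 9 for heart muscle. With peaks of 2 calls they were 3, 2, 1, 0 and 0, with 3 for further genes and 5 for heart muscle (9.04% of all). With scores of at least 3 they were 10 for all lineage genes (20.4%, against 24.2% of all), 0 for smooth muscle and 9 for further genes. Counting gene bodies alone gave 11 lineage genes (22.4%, against 21.1% of all), 15 hypoxia genes and 9 heart muscle genes. Any overlap and assignment to the nearest coding gene left the lineage counts at 14, 6, 4, 3 and 1 (28.6%), against 32.7% and 28.4% of all coding genes, and the latter gave 11 heart muscle genes (36.7%). A 1 kb window gave 13 (26.5%, against 28.4% of all), 6, 4, 2 and 1. No paired analysis was possible because the merged list carries no values per replicate, and for the same reason leaving out a replicate was not run. The unknown depth limits what a missing peak shows: a gene without one had no call, which does not show that HIF1α was absent there.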
